A study of Mus musculus with 8 samples.

Results

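The genes described here are 37 interferon response and antigen presentation genes, chosen as a fixed list of symbols and looked up in the gene table of the count matrices. Of these, 36 were found among the 31053 genes listed there, and Mx2 matched no symbol. Rsad2 had 0 UMIs in every library, which left 35 genes for testing. The cells were SN4741, a clonal mouse neural precursor line of genotype WT per the labels, derived from embryonic substantia nigra of transgenic mice and conditionally immortalized by a temperature-sensitive SV40 T antigen driven by a tyrosine hydroxylase promoter. Single-cell RNA-seq libraries were made from 4 replicates grown at 37°C in medium with 10% fetal bovine serum (permissive) and 4 replicates kept for 48 hours at 39°C in 0.5% serum (non-permissive), and all 8 libraries came from the same karyotypically unstable line. Temperature, serum and T antigen activity changed together and cannot be told apart. Nothing in the labels says that the replicates came from separate cultures, so the p-values measure the spread between these libraries, which may be technical.

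Interferons are secreted proteins that cells release after sensing foreign or misplaced nucleic acid. Type I interferon acts through receptors, Janus kinases and a transcription factor complex that includes IRF9 and binds a promoter element called the ISRE, while the response to type II interferon runs through the GAS element. Both raise antiviral proteins and the machinery of class I antigen presentation, in which peptides cut by the proteasome are pumped into the endoplasmic reticulum by TAP1 and TAP2, loaded with the help of tapasin onto a heavy chain paired with beta-2 microglobulin, and shown at the cell surface. Many of these genes also have a low basal expression that does not need added interferon.

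After filtering, 18351 of 19125 cells remained, with 26238596 to 29633818 UMIs per library at 37°C and 17166686 to 28096213 at 39°C. Cells were assigned to a cell cycle phase from published marker genes, none of which is on the list of 37. At 37°C, 20.6% to 28.7% of the cells of a library were called G1, and at 39°C 82.5% to 85.4%, so that a comparison of all cells also compares different mixtures of phases. The median mitochondrial share of UMIs was 7.55% to 7.89% at 37°C and 8.04% to 8.85% at 39°C. No library pair shared more than 5 cell barcodes. Of the neural precursor markers, Vim, Sox2, Nes and Hes1 were well expressed, while Sox1, Pax6 and Fabp7 had at most 3 UMIs at either temperature. Mesenchymal genes, led by Col1a1, summed to 2050 to 2090 CPM at 37°C and 1090 to 1120 at 39°C, and 6 neuronal genes, mostly Map2 and with Dcx at 0 UMIs, to 62.5 to 69.2 and 37.3 to 39.2 CPM.

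Promoter sequences are shown for 8 genes because their windows hold letters matching the elements through which interferon and NF-kappaB are known to act, and they include genes that were higher, lower or not different at 39°C. RefSeq windows from 250 bases before to 50 bases after the transcription start (GRCm38.p6) were held for 26 of the 37 genes. Each window was searched on both strands for the ISRE core GAAANNGAAA, the GAS core TTCNNNGAA and the kappaB consensus. Capitals mark every match, and matches that touch or overlap run together. The stretches lie at chr4:156200845-156200926 (Isg15, minus strand), chr19:34640755-34640843 (Ifit1, plus), chr19:34583343-34583446 (Ifit3, plus), chr3:142559969-142560044 (Gbp3, plus), chr8:71537557-71537644 (Bst2, minus), chr2:122147518-122147600 (B2m, plus), chr17:34000418-34000488 (H2-K1, minus) and chr17:35262893-35262963 (H2-D1, plus).
Isg15: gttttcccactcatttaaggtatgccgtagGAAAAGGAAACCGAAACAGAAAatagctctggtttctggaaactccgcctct
Ifit1: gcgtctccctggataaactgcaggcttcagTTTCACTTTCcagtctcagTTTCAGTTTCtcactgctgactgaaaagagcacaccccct
Ifit3: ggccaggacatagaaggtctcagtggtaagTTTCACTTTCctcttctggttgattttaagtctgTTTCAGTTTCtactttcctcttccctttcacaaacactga
Gbp3: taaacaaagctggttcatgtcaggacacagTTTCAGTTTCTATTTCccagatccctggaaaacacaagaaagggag
Bst2: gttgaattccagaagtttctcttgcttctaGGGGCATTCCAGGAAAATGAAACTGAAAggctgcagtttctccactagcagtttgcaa
B2m: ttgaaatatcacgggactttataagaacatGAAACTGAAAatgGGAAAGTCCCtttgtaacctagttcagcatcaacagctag
H2-K1: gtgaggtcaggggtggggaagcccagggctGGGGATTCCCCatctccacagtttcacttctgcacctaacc
H2-D1: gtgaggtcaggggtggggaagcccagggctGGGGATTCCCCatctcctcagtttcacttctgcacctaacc

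Isg15 held an unbroken run of 3 overlapping ISRE cores, and Ifit1, Ifit3, Gbp3 and Bst2 held 2 each. In Bst2 a kappaB match, a GAS core and the ISRE cores overlapped in a chain, and in B2m an ISRE core was followed by a kappaB match. The H2-K1 and H2-D1 stretches were identical at 70 of 71 positions and differed by A48T (H2-K1 first, counted from the 5′ end). An ISRE core was present in 11 of the 26 genes (Ddx58, Ifih1, Stat2, Isg15, Ifit1, Ifit3, Bst2, Rsad2, Gbp2, Gbp3 and B2m), in 11 of their 30 windows (36.7%), against 3.44% of all 32851 promoter windows. The GAS core was found in 4 genes (Irf1, Ifi35, Bst2 and Samhd1; 13.3% of their windows and 8.30% of all windows) and the kappaB consensus in 5 (Irf1, Bst2, B2m, H2-K1 and H2-D1; 20% and 4.51%). These matches are letters in a window and were not tested as binding sites.

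At 39°C the group did not move as a unit: 7 of the 35 tested genes were higher, 17 were lower and 11 passed in neither direction (edgeR quasi-likelihood test on UMI sums per library, Benjamini-Hochberg adjusted p below 0.05). The 7 higher genes were Nlrc5, Ifit1, Tap1, Irf7, Ifi35, Ifit3 and Irf9. Among all 15810 genes tested 31.5% were higher and 30.5% lower. Levels are given as CPM, UMIs per 1000000 UMIs of a library after TMM scaling, with each library's sum over its cells as 1 sample, so a CPM is a share of the RNA captured and not a number of molecules per cell. The median log2 fold change of the 35 genes was -0.21, beside 0.02 for all genes. Only Nlrc5 and Zbp1 passed the larger threshold of a log2 fold change beyond 1.5 with an adjusted p below 0.01, which 2.21% of all genes passed upwards and 3.62% downwards. For 23 of the 35 genes all 39°C values lay on 1 side of all 37°C values, against 56.7% of all genes.

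**Figure D1:**
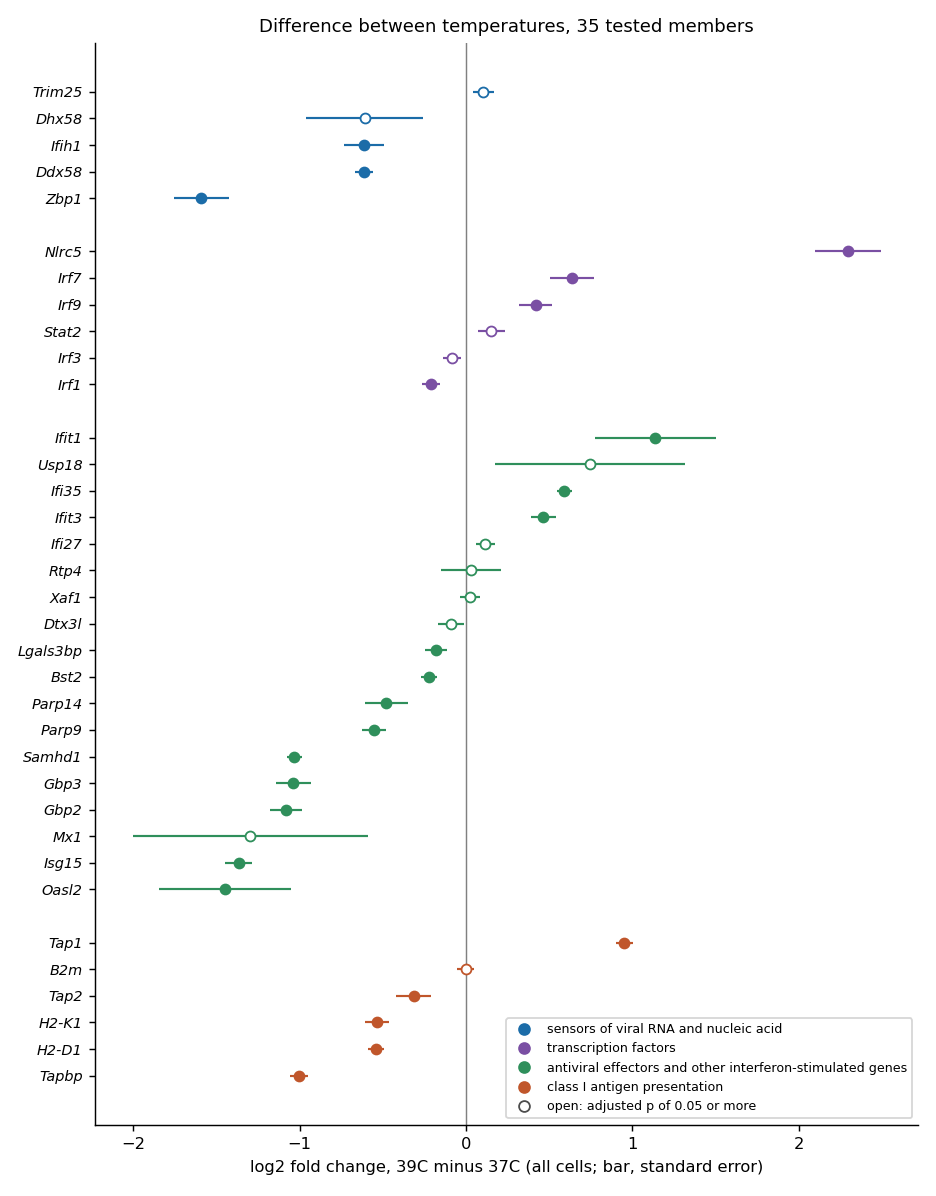
Log2 fold change of each of the 35 tested genes, 39°C minus 37°C, over all cells (x axis), with the standard error as a bar; genes are rows, colored by role, and filled points have an adjusted p below 0.05. Nlrc5 stands at 2.30 and Zbp1 at -1.59, and within class I antigen presentation Tap1 (0.95) and Tapbp (-1.003) lie on opposite sides of 0.

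Of the 5 sensors of nucleic acid, 3 were lower at 39°C, beside 30.5% of all genes, and the others passed in neither direction. Zbp1 (chr2:173206612-173218923 of GRCm38, minus strand), a sensor of Z-form nucleic acid that can trigger necroptosis, gave 3.77, 3.37, 3.61 and 3.72 CPM in the 37°C libraries and 0.851, 1.06, 1.03 and 1.77 CPM in the 39°C libraries. Every 39°C library lay below every 37°C library, and the fold change was -1.59 on the log2 scale (SE 0.165, adjusted p = 7.06e-08). Ddx58, which encodes the RNA helicase RIG-I, gave 24, 23.3, 23.2 and 23.4 CPM at 37°C and 15.3, 16.2, 15 and 14.8 CPM at 39°C. That fall of 0.61 on the log2 scale (SE 0.0526, adjusted p = 4.9e-09) was many times the spread within either group. Ifih1, the related helicase MDA5, fell by 0.61 from 3.70 ± 0.362 to 2.44 ± 0.248 CPM (SD, n = 4; edgeR adjusted p = 1.94e-04). Dhx58 (LGP2, 61 and 35 UMIs in all) had a log2 fold change of -0.61 with an adjusted p of 0.142, and Trim25, a ubiquitin ligase of the RIG-I pathway, one of 0.10 (0.147).

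Of the 6 transcription factors, 3 were higher and 1 was lower, beside 31.5% and 30.5% of all genes. Nlrc5 (chr8:94434356-94527272, plus strand), the transactivator of class I genes, gave 0.651, 0.853, 0.561 and 0.351 CPM at 37°C and 3.29, 3.26, 2.48 and 2.93 CPM at 39°C. The groups were far apart although the gene rested on only 67 and 290 UMIs (log2 fold change 2.30, SE 0.198, adjusted p = 5.23e-09). Irf7, the factor that amplifies type I interferon production, gave 2.16, 3.18, 2 and 2.46 CPM at 37°C and 3.74, 3.97, 3.58 and 3.85 CPM at 39°C, without overlap (0.64, SE 0.133, adjusted p = 3.45e-04). Irf9, the DNA-binding part of the type I complex, rose from 4.65 ± 0.359 to 6.16 ± 0.712 CPM (SD, n = 4; log2 0.42, edgeR adjusted p = 0.00102). Its 37°C maximum of 5.14 and its 39°C minimum of 5.16 CPM nearly touched. Irf1, a factor induced by interferon gamma, was lower by a small amount (log2 -0.21, adjusted p = 0.00186), while Irf3, the factor downstream of the RNA sensors, and Stat2 passed in neither direction (-0.09, adjusted p = 0.181, and 0.15, adjusted p = 0.116).

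Among the antiviral effectors and other interferon-stimulated genes, 3 of 18 tested were higher and 9 lower, beside 31.5% and 30.5% of all genes. Isg15, a ubiquitin-like protein conjugated to other proteins, gave 12.1, 12.1, 12.6 and 13.1 CPM at 37°C and 4.26, 4.47, 5.03 and 5.44 CPM at 39°C. Every 39°C library lay far below every 37°C library (log2 fold change -1.37, SE 0.0811, adjusted p = 2.3e-11). Samhd1, which hydrolyzes deoxynucleotides, gave 114, 113, 105 and 112 CPM at 37°C and 57.2, 54.5, 54.4 and 51.5 CPM at 39°C. The 39°C mean was 49% of the 37°C mean (log2 -1.03, SE 0.0476, adjusted p = 5.74e-13). The guanylate-binding proteins Gbp2 and Gbp3, GTPases strongly induced by interferon gamma, fell alike. Gbp2 gave 11.9, 11.9, 12.8 and 13.7 CPM at 37°C and 6.18, 5.19, 7.26 and 5.09 CPM at 39°C (log2 -1.08, SE 0.0975, adjusted p = 9.77e-09). Gbp3 gave 5, 4.81, 5.68 and 5.34 CPM against 2.55, 2.61, 2.51 and 2.47 CPM (log2 -1.04, SE 0.103, adjusted p = 3.76e-08). Neither gene's libraries overlapped between temperatures. Oasl2, of the oligoadenylate synthetase-like family, rested on 57 and 18 UMIs and fell by 1.45 on the log2 scale (SE 0.397, adjusted p = 0.00365), its 39°C libraries reading 0.227, 0.0379, 0.248 and 0.231 CPM against 0.351 to 0.632 at 37°C.

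Smaller falls passed for Parp9 (log2 -0.56, from 11.6 ± 0.174 to 7.82 ± 0.656 CPM; SD, n = 4, edgeR adjusted p = 1.21e-06) and Parp14 (-0.48, adjusted p = 0.00299), both macrodomain ADP-ribosyltransferase family proteins. Dtx3l, the ubiquitin ligase that pairs with PARP9 and whose gene lies head to head with Parp9 on chromosome 16, did not pass (-0.09, adjusted p = 0.331). Bst2, or tetherin, which holds enveloped virions at the cell surface, gave 155, 150, 155 and 157 CPM at 37°C and 122, 131, 143 and 132 CPM at 39°C, a small fall without overlap (-0.22, SE 0.0496, adjusted p = 6.13e-04). In G1 cells it also fell (-0.26, edgeR adjusted p = 2.64e-04). In S and G2M cells it averaged 159 ± 4.33 CPM at 37°C and 168 ± 17.7 at 39°C (SD, n = 4) and did not pass. There it was called higher when scaled by library totals only (0.19, adjusted p = 0.0117) or by upper quartile factors (0.16, adjusted p = 0.0442). Lgals3bp, a secreted glycoprotein, fell by 0.18, with an adjusted p of 0.0281 that missed the threshold in several alternatives.

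Ifi35 was the effector with a clear rise. It gave 100, 100, 99.4 and 106 CPM at 37°C and 153, 161, 150 and 147 CPM at 39°C, well apart (log2 0.59, SE 0.0458, adjusted p = 1.18e-09). Ifit3, of the family of RNA-binding proteins with tetratricopeptide repeats and close in sequence to Ifit3b, so that shared reads are uncertain, gave 8.78, 7.98, 8.31 and 9.37 CPM at 37°C and 13, 11.2, 12.6 and 10.9 CPM at 39°C (log2 0.47, SE 0.077, adjusted p = 2.92e-05). Its libraries did not overlap, and among G1 cells its fold change was negative, by an amount that depended on how phases were scored. Ifit1, which recognizes the cap of foreign RNA, gave 0.48, 0.62, 0.771 and 0.632 CPM at 37°C and 0.965, 0.681, 1.03 and 2.78 CPM at 39°C. These overlap, and the rise (log2 1.14, SE 0.364, adjusted p = 0.0107) rested on replicate 4 at 39°C, where 54 of 72 Ifit1 UMIs came from a single cell. Without that library the log2 fold change was 0.49 (adjusted p = 0.112), and without the 4 cells high in both Isg15 and Ifit3, an alternative chosen after seeing the data, it was 0.32 (adjusted p = 0.297).

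Several hallmark interferon-stimulated genes were close to undetected. Rsad2 (viperin) had 0 UMIs, Mx1 had 12 UMIs at 37°C and 4 at 39°C, and Usp18, the ubiquitin-like protease that removes ISG15, had 10 and 15. Neither Mx1 (adjusted p = 0.12) nor Usp18 (0.272) passed. Ifi27 was abundant, at 111 ± 3.1 CPM at 37°C and 120 ± 11.5 at 39°C (SD, n = 4), and did not pass (log2 0.12, edgeR adjusted p = 0.0938). Xaf1 (0.02, adjusted p = 0.744) and Rtp4 (0.03, adjusted p = 0.891) differed by less than their error.

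The 6 class I genes split: 4 were lower, Tap1 was higher and B2m did not pass, beside 30.5% lower and 31.5% higher among all genes. B2m, the light chain, gave 181, 185, 199 and 172 CPM at 37°C and 189, 178, 190 and 179 CPM at 39°C. The values interleave, with a log2 fold change of -0.002 (SE 0.051, adjusted p = 0.975). The heavy chains both fell. H2-K1 gave 27.3, 30, 31.1 and 30.4 CPM against 22.5, 20.7, 17.2 and 22 CPM (log2 -0.54, SE 0.0704, adjusted p = 1.72e-06). H2-D1 gave 69.3, 78.6, 75.1 and 77.3 CPM against 51.3, 50.5, 53.5 and 50.9 CPM (log2 -0.54, SE 0.0483, adjusted p = 8.69e-09). Their sequences resemble each other and other class I genes, so the division of reads between them is uncertain.

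Tap1, a peptide transporter subunit, gave 27.4, 27.9, 27.3 and 28.5 CPM at 37°C and 58.6, 53.1, 51.1 and 52.4 CPM at 39°C, a 1.94-fold difference (log2 0.95, SE 0.0502, adjusted p = 4.15e-12). Tap2, with which it forms the transporter, gave 10.7, 10.2, 11.6 and 9.55 CPM and 10.8, 6.74, 8.57 and 8.29 CPM, which overlap (log2 -0.32, SE 0.104, adjusted p = 0.0128). Tapbp, or tapasin, gave 66.9, 71.5, 75.4 and 80.1 CPM at 37°C and 36.1, 38.1, 37.2 and 35.2 CPM at 39°C (log2 -1.003, SE 0.0553, adjusted p = 7.68e-12). The transporter's subunits and their loading partner differed in direction in the same libraries. Tapbp overlaps Zbtb22 on the same strand, and Irf9 overlaps Rnf31, so reads of those pairs may not be fully separated. Tap1 and Tap2 lie close together on chromosome 17, at chr17:34187553-34197225 and chr17:34203527-34216321, and both on the plus strand (GRCm38).

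**Figure D2:**
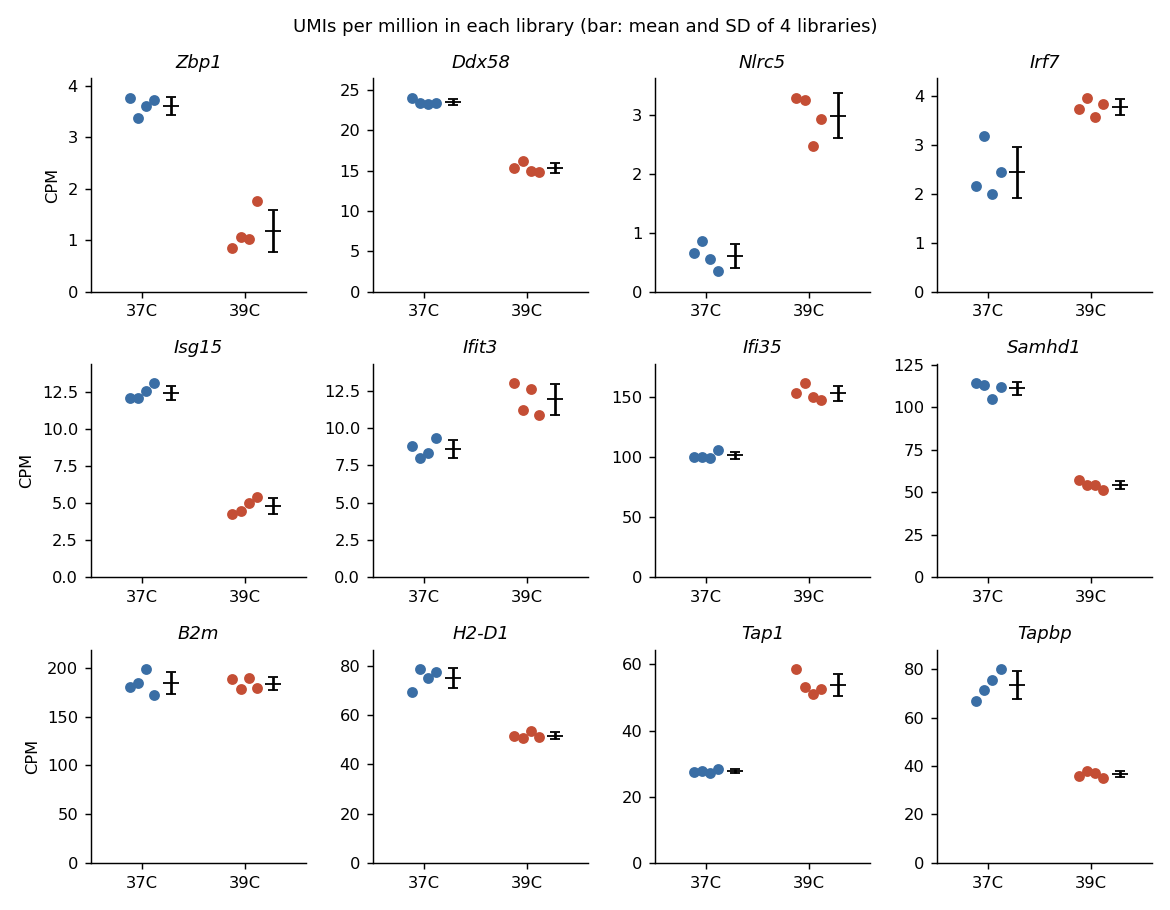
CPM of 12 genes (y axis, from 0 in each panel) in each of the 4 libraries at 37°C (blue) and at 39°C (red), with the mean and SD of each group beside the points. The groups do not overlap for 11 of the genes, and the B2m points interleave between 172 and 199 CPM.

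Summed over each role, in CPM, the sensors stood at 47.8 ± 1.19 at 37°C and 37 ± 1.62 at 39°C (SD, n = 4), the antiviral effectors at 569 ± 10.5 and 531 ± 18.9, and the class I genes at 401 ± 15.2 and 355 ± 10.2. The transcription factors summed to 77.4 ± 2.32 and 77.2 ± 0.471 CPM. These sums follow their most abundant members and carry no test. By ISRE core, 6 of the 10 tested genes that hold it were lower and 2 (Ifit1 and Ifit3) higher, and of 15 genes whose window holds none 7 were lower and 4 higher. Among all genes 30.5% were lower and 31.5% higher. The Ifit1 call rested on replicate 4 at 39°C and was lost without it (edgeR adjusted p = 0.112). These counts by ISRE core are descriptions of a short list.

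Within G1 cells alone, 4 of the 35 genes were higher at 39°C and 18 lower, beside 24.8% and 22.4% of 14712 genes. Within S and G2M cells, 3 were higher and 9 lower, beside 20.6% and 23.8% of 14760 genes. Nlrc5, Tap1 and Ifi35 were higher, and Zbp1, Ddx58, Isg15, Samhd1, Gbp2, Gbp3, H2-D1 and Tapbp lower, in both. Tap1 differed by 0.87 (SE 0.0657, adjusted p = 2.07e-10) on the log2 scale in G1 cells and by 0.81 (SE 0.0722, adjusted p = 4.01e-10) in S and G2M cells, close to its value over all cells. Zbp1 fell by 2.30 in G1 cells (adjusted p = 7.87e-09) and by 1.48 in S and G2M cells (adjusted p = 1.93e-04). In S and G2M cells Gbp2 and Gbp3 lost their calls with sums thinned to equal totals (adjusted p = 0.272 and 0.218), and Gbp2 without replicate 4 at 39°C (0.0923). Irf7 and Irf9, which rose over all cells, did not pass in either phase class (in G1, log2 0.33, adjusted p = 0.134, and 0.34, adjusted p = 0.0593). With phases scored per library both passed in both classes (in G1, Irf7 0.58, adjusted p = 0.00333, and Irf9 0.41, adjusted p = 0.017; in S and G2M, 0.51, adjusted p = 0.0253, and 0.38, adjusted p = 0.0203). Irf1 and Oasl2, which fell over all cells, also passed in neither phase class (in G1, -0.15, adjusted p = 0.0995, and -1.15, adjusted p = 0.176). Phases scored per library called both lower in S and G2M cells (-0.24, adjusted p = 0.00413, and -1.51, adjusted p = 0.0208).

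The Ifit3 result depended on the phase scoring. In G1 cells it fell by 0.54 on the log2 scale, from 18.7 ± 1.81 CPM at 37°C to 12.8 ± 0.976 CPM at 39°C (SD, n = 4; edgeR adjusted p = 3.28e-05), while in S and G2M cells it had a log2 fold change of 0.35 that did not pass (adjusted p = 0.13). With phases scored in each library by itself, the G1 fold change was -0.18 and did not pass (adjusted p = 0.0688), and Ifit3 was higher in S and G2M cells (0.99, adjusted p = 1.46e-06). Ifi27, which did not pass over all cells, was lower at 39°C among G1 cells (-0.23, adjusted p = 0.00249), and so was B2m (-0.15, adjusted p = 0.0283). Neither passed with phases scored per library (Ifi27 -0.03, adjusted p = 0.64, and B2m -0.10, adjusted p = 0.131), and B2m lost its call in 6 other alternatives, among them without replicate 3 at 37°C (-0.11, adjusted p = 0.142). H2-K1 was lower within G1 (-0.30, adjusted p = 0.0181) and did not pass within S and G2M (-0.07, adjusted p = 0.561). With CPM on plain totals, H2-K1 averaged 26.7 ± 1.54 in S cells at 37°C and 22.2 ± 6.98 at 39°C (SD, n = 4). In G2M cells it averaged 35.3 ± 1.11 at 37°C and 60 ± 24.1 at 39°C. The S values at 39°C (13.6 to 30.4) enclosed those at 37°C (24.9 to 28.6). The G2M values at 39°C (41.8 to 95.6) lay above those at 37°C (33.7 to 36), but G2M cells were only 2.9% to 5.4% of a 39°C library. The single phases were not tested. The G1 call was lost without replicate 3 at 37°C (adjusted p = 0.124), replicate 4 at 37°C (0.0569) or replicate 3 at 39°C (0.063), and with phases scored per library H2-K1 was lower in S and G2M cells (-0.50, adjusted p = 2.37e-06). Usp18 was counted as higher in G1 (adjusted p = 0.0468) with 0 UMIs at 37°C and 14 at 39°C, and lost the call in most alternatives, among them without those 4 cells (adjusted p = 0.0768). The 39°C S and G2M cells numbered only 144 to 610 per library, against 1253 to 2123 at 37°C, and gave wider errors. The mixture of S and G2M in this class also differed between temperatures. Replicate 1 at 37°C had 36.7% of its cells in S and 34.6% in G2M, and replicate 1 at 39°C 11.7% and 2.9%.

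**Figure D3:**
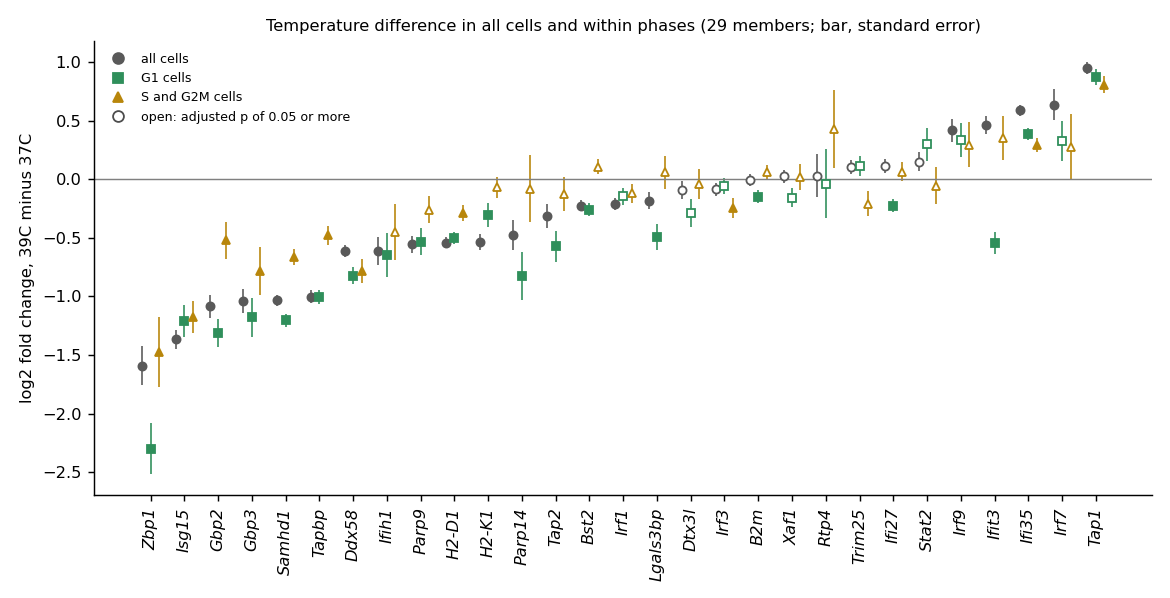
Log2 fold change between temperatures (y axis, 39°C minus 37°C, bar: standard error) for 29 genes with at least 100 UMIs at each temperature, in all cells (circles), G1 cells (squares) and S and G2M cells (triangles); filled symbols have an adjusted p below 0.05. The 3 symbols of Tap1 lie together near 0.9, and those of Ifit3 lie on both sides of 0.

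A comparison of G1 with S and G2M cells inside each library showed which genes differ between phases. Averaged over both temperatures, 10 of the 35 genes were higher and 9 lower in G1, beside 24.5% and 26% of 14745 genes (edgeR with library as a block). Ifit3 had the smallest adjusted p of the list (5.13e-46). In G1 cells at 37°C it gave 18.6, 19.7, 16.1 and 20.2 CPM, and in S and G2M cells of the same libraries 5.69, 5.01, 6.46 and 6.94 CPM. At 39°C the G1 values were 13.3, 11.8, 13.8 and 12.2 CPM and the S and G2M values 11.5, 8.93, 6.62 and 5.04 CPM. G1 was above in all 8 libraries, by 1.63 on the log2 scale at 37°C (adjusted p = 4.61e-56) and by 0.74 at 39°C (adjusted p = 4.26e-07). With CPM on plain totals, Ifit3 averaged 18.8 in G1, 8.15 in S and 3.29 in G2M at 37°C, and 12.8, 9.9 and 3.95 at 39°C, the lowest level being in G2M at both temperatures.

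Ifi35 was higher in G1 in 8 of 8 libraries (log2 0.38, adjusted p = 1.28e-42), as were Ddx58 (0.29, adjusted p = 2.71e-05) and Irf7 (0.53, adjusted p = 0.00198), and Ifi27 in 7 of 8 (0.33, adjusted p = 2.7e-32). The class I heavy chains and tapasin behaved oppositely. H2-K1 gave 19.5, 22.5, 27.4 and 24.2 CPM in G1 and 30.9, 32.7, 32.8 and 32.7 CPM in S and G2M at 37°C, and 19.7, 19.5, 15.6 and 20.8 against 40.2, 28.6, 26.7 and 29.1 CPM at 39°C. It was lower in G1 in every library (log2 -0.58, adjusted p = 3e-25). H2-D1 (-0.24, adjusted p = 6.08e-10), Tapbp (-0.44, adjusted p = 7.27e-28) and Bst2 (-0.24, adjusted p = 3.32e-21) were also lower in G1 in all 8 libraries. In this edgeR fit the genes shared a single estimate of the spread between libraries, so the smallest p-values rest mainly on counting error.

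The G1 difference itself changed with temperature for 10 genes: it was smaller or more negative at 39°C for 9 and larger for 1, beside 5.13% and 11.1% of all genes. Scaled by library totals alone, the counts over all genes changed to 1673 smaller and 609 larger, from 757 and 1641. For Samhd1 the log2 difference of G1 minus S and G2M went from 0.11 at 37°C to -0.41 at 39°C (interaction -0.52, adjusted p = 4.65e-13), and for Tapbp from -0.18 to -0.70 (interaction -0.52, adjusted p = 1.11e-09). With CPM on plain totals, Samhd1 averaged 121 in G1, 117 in S and 96.3 in G2M at 37°C, and 52, 82.4 and 46 at 39°C. At 39°C only S cells thus stood above G1 cells for Samhd1, and G2M cells did not. For Ifit3 the log2 difference shrank from 1.63 to 0.74 (interaction -0.89, SE 0.182, adjusted p = 2.58e-05). Zbp1 was higher in G1 at 37°C, where every library gave 5.88 to 6.38 CPM in G1 and 2.71 to 3.17 in S and G2M, and at 39°C the phases overlapped, but the interaction did not pass (-0.78, adjusted p = 0.273). The 1 larger difference was that of Ifit1 (3.24, adjusted p = 0.00312), which had 2 UMIs in S and G2M cells at 39°C and was not called without replicate 4 at 39°C or without the 4 cells high in Isg15 and Ifit3 described with the single cells.

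**Figure D4:**
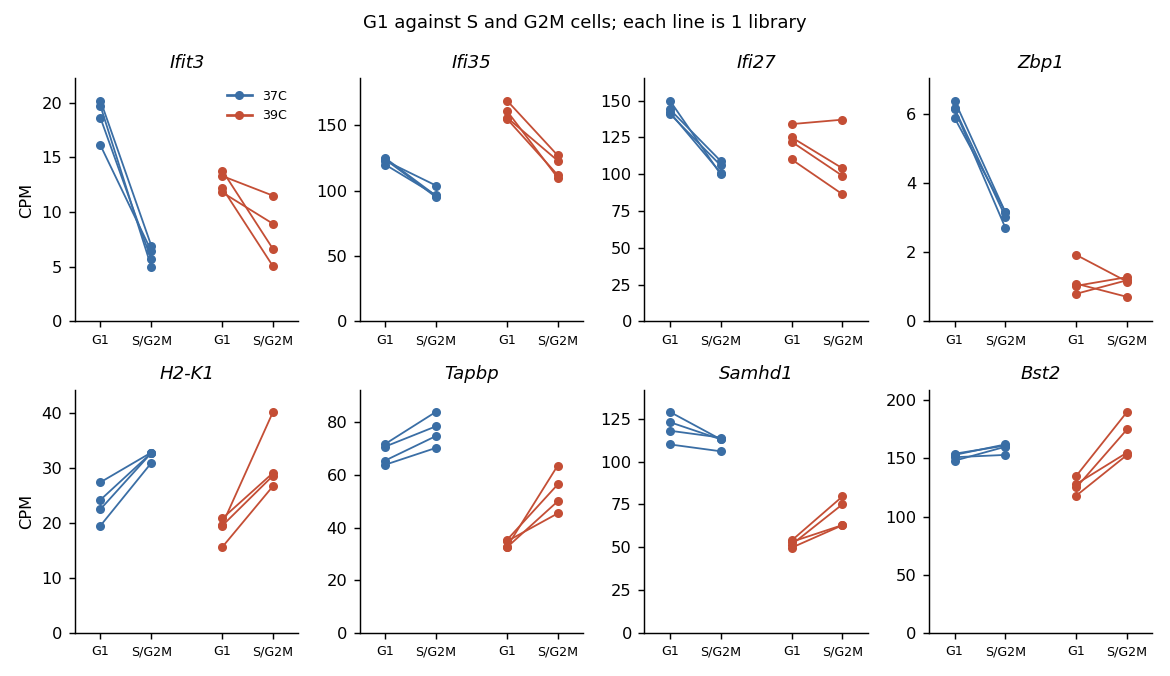
CPM (y axis, from 0) of 8 genes in G1 and in S and G2M cells of each library, 37°C in blue and 39°C in red, with each line joining the 2 values of 1 library. Ifit3 and Ifi35 fall from G1 to S and G2M in all 8 libraries, and H2-K1, Tapbp and Bst2 rise in all 8.

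Across single cells, each cell was thinned to 3000 UMIs, which left out 215 cells at 37°C and 579 at 39°C. B2m was then detected in 41.7% ± 1.82 of cells at 37°C and 42.3% ± 1.49 at 39°C (SD, n = 4), and Bst2 in 36.4% ± 0.109 and 31% ± 1.19. Tapbp was detected in 19.7% ± 0.843 and 10.6% ± 0.337, Samhd1 in 26.8% ± 0.781 and 14% ± 0.324, and Tap1 in 8.18% ± 0.47 and 14.6% ± 0.755. Isg15 was found in 3.65% ± 0.395 of cells at 37°C and 1.43% ± 0.348 at 39°C. These shares depend on the depth chosen. B2m was detected in 58.2% and 58% of cells at 5000 UMIs, and in 84% and 75.9% without thinning. The culture held no cell type that should lack these genes, so the share due to free RNA could not be measured.

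The genes did not vary together from cell to cell. Over the 465 pairs of genes for which a correlation could be computed in every library, the median Spearman correlation across the cells of a library ranged from -0.026 to 0.04, and no pair exceeded 0.1. In counts this sparse a weak correlation says little, and the cells of a library share its depth. Counts per thinned cell had a variance close to their mean for most genes, with a median ratio over libraries of 1.07 for Isg15 and 1.25 for Ifit3, the exception being Ifit1 at 2. In the unthinned counts, 4 of 18351 cells held at least 3 UMIs of both Isg15 and Ifit3: 1 in replicate 4 at 37°C, 1 in replicate 3 at 39°C and 2 in replicate 4 at 39°C. The largest of them held 13 Isg15, 54 Ifit1, 16 Ifit3 and 6 Irf7 UMIs among 33524 UMIs. Their share was 0.0374% (exact Clopper-Pearson 95% interval 0.000946% to 0.208%), 0.0388% (0.000982% to 0.216%) and 0.0572% (0.00693% to 0.207%) of those libraries. In replicate 1 at 39°C, 0 of 985 cells allows a share of up to 0.305%, and these limits cover counting error only.

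**Figure D5:**
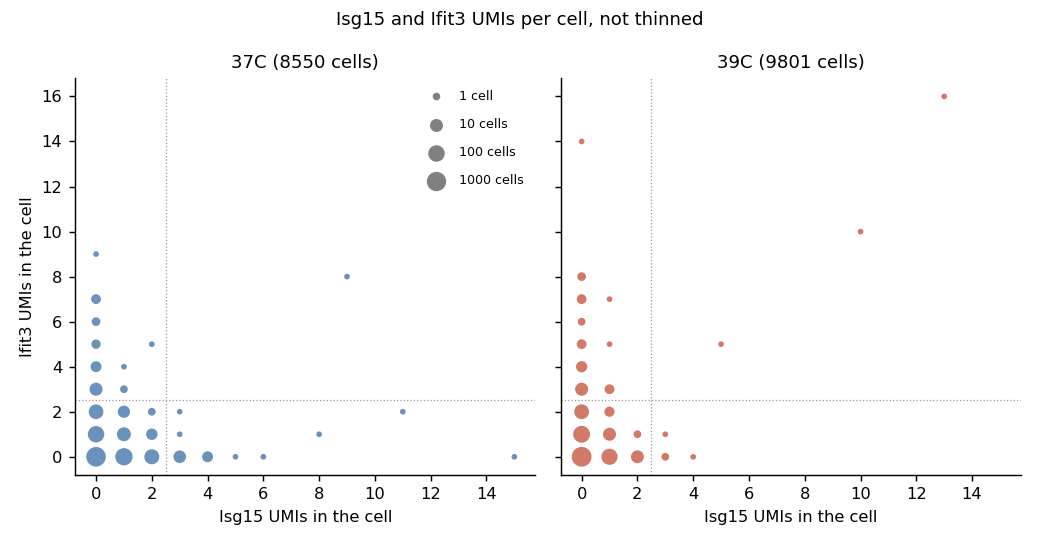
Isg15 UMIs (x axis) and Ifit3 UMIs (y axis) per cell at 37°C (8550 cells) and 39°C (9801 cells), with the point size giving the number of cells on a log scale and dotted lines between 2 and 3 UMIs. Nearly all cells lie on or near the axes, and 4 cells stand beyond both lines.

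The other genes of the pathway gave the setting. Of 8 interferon ligands, Ifnb1, Ifna2, Ifna4, Ifnl2, Ifnl3 and Ifng had 0 UMIs in 18351 cells and were not detectable at this depth, while Ifnk had 2 UMIs and Ifne 6, all at 39°C. Receptors and signalling genes were expressed, with 6 of 16 higher and 2 lower, beside 31.5% and 30.5% of all genes. Within G1 cells 5 were higher and 1 lower, beside 24.8% and 22.4%. The interferon gamma receptor subunits Ifngr1 (69.4 to 107 CPM, log2 0.63, adjusted p = 1.02e-09) and Ifngr2 (42.8 to 70.6 CPM, 0.72, adjusted p = 1.45e-10) and the kinase Jak2 (0.73, adjusted p = 2.99e-10) were higher. The type I receptor subunits Ifnar1 (0.08, adjusted p = 0.168) and Ifnar2 (0.04, adjusted p = 0.517) did not pass. The phosphatases Ptpn6 (-1.58, 288 and 84 UMIs, adjusted p = 2.52e-07) and Ptpn2 (-0.32, adjusted p = 8.29e-05) were lower over all cells, and neither passed within G1 cells (-0.18, adjusted p = 0.728, and -0.05, adjusted p = 0.669).

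Of the 13 tested genes of nucleic acid sensing, 4 were higher and 4 lower over all cells, near the shares of all genes (31.5% and 30.5%). Within G1 cells 4 were higher and 1 lower, beside 24.8% and 22.4% of all genes. The cytosolic DNA sensor cGAS, listed as Mb21d1, fell from 18.3 ± 0.86 to 9.8 ± 0.298 CPM (SD, n = 4; log2 -0.90, edgeR adjusted p = 1.76e-10). Within phases it did not pass, with 8.66 against 8.11 CPM in G1 cells (-0.09, adjusted p = 0.575) and 21.3 against 19.9 CPM in S and G2M cells (-0.10, adjusted p = 0.402). Its adaptor STING, listed as Tmem173, had 69 and 16 UMIs (-1.89, adjusted p = 1.17e-04), and Tlr3 fell by 0.37 (adjusted p = 0.00161) but passed in neither phase class (G1 -0.24, adjusted p = 0.19). Ikbke, a kinase that activates IRF3 and IRF7, was higher (1.06, adjusted p = 4.13e-10), as were Myd88 (0.40, adjusted p = 5.36e-05) and Rela (0.24, adjusted p = 5.74e-04).

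Of 30 other interferon-stimulated genes tested, 8 were higher and 14 lower, beside 31.5% and 30.5% of all genes. Within G1 cells 4 of 28 were higher and 14 lower, beside 24.8% and 22.4%. The chemokines had the largest fold changes over all cells, in opposite directions. Cxcl10, induced by interferon gamma, fell from 1.22 ± 0.287 to 0.186 ± 0.0992 CPM (SD, n = 4; 137 and 18 UMIs, log2 -2.71, edgeR adjusted p = 8.86e-07), and Ccl5 rose from 0.204 ± 0.0931 to 1.71 ± 0.433 CPM (23 and 171 UMIs, log2 3.05, adjusted p = 2.42e-08). Of the Cxcl10 UMIs only 1 at 37°C and 6 at 39°C were in G1 cells, and in S and G2M cells its fold change was -0.96 and did not pass (adjusted p = 0.0885). Ccl5 was higher in both phase classes (G1 adjusted p = 0.00206, S and G2M adjusted p = 1.4e-09). Ifi47 (-1.41, adjusted p = 1.33e-05) and Ifitm1 (-1.27, adjusted p = 8.14e-07) were also lower, and Trim30a (1.08, adjusted p = 0.0011) and Irf2 (0.63, adjusted p = 2.08e-09) higher. Trim30a did not pass within G1 cells (-0.09, adjusted p = 0.885).

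Antigen processing genes outside the list of 37 were mostly lower, 13 of 17, with 2 higher, beside 30.5% and 31.5% of all genes. Within G1 cells 12 were lower and 1 higher, beside 22.4% and 24.8%. Psmb8 (11.9 ± 1.24 to 3.68 ± 0.64 CPM, SD, n = 4; log2 -1.71, edgeR adjusted p = 5.91e-11) and Psmb10 (56.5 ± 4.77 to 22.3 ± 1.06 CPM; -1.34, adjusted p = 5.41e-13), immunoproteasome subunits, fell most, with H2-Q4 (-0.99, 412 and 181 UMIs, adjusted p = 9.75e-06) next. Psmb9, the third immunoproteasome subunit, did not pass (-0.14, adjusted p = 0.355). The constitutive subunits, named like Psmb9 after their values were seen, were Psmb5 (-0.60, adjusted p = 1.95e-08), Psmb6 (-0.50, adjusted p = 1.59e-07) and Psmb7 (-0.41, adjusted p = 1.67e-06), and they were lower as well. H2-T23 (0.27, adjusted p = 0.0142) and the chaperone Canx (0.14, adjusted p = 0.0114) were higher over all cells. Within G1 cells H2-T23 did not pass (-0.04, adjusted p = 0.77) and Canx did (0.21, adjusted p = 0.00153), and H2-Q4, lower in G1 (-0.66, adjusted p = 0.0275), did not pass in S and G2M (0.01, adjusted p = 0.973). Of the 6 class II genes, 4 were tested, with 2 higher and 1 lower over all cells, beside 31.5% and 30.5% of all genes. H2-Aa had 0 UMIs and H2-Ab1 6, and Ciita, the class II transactivator, had 12 and 24 (log2 1.16, adjusted p = 0.0374). Within G1 cells Ciita had 4 and 18 UMIs and did not pass (log2 0.38, adjusted p = 0.712). Cd74, the invariant chain, fell from 45 to 5 UMIs (log2 -2.87, adjusted p = 7.22e-05) but had 3 and 0 UMIs in G1 cells and did not pass in S and G2M cells (-0.53, adjusted p = 0.546), and H2-DMa, a peptide-exchange chain, rose by 0.68 (adjusted p = 5.54e-06).

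Most defining markers of immune cells were at or near 0. Of 8 microglia and macrophage genes Tyrobp and C1qa had 0 UMIs and Ptprc had 3 and 5, and the summed level of the list was 16.3 to 19.3 CPM at 37°C and 27.9 to 35.5 CPM at 39°C, most of it Cd68, a lysosomal protein (17.1 to 29 CPM, log2 0.75, adjusted p = 1.89e-08). Cx3cr1 of the same list had 19 and 81 UMIs in G1 cells (0.76 and 1.03 CPM, log2 0.32, edgeR adjusted p = 0.594). It overlaps Gorasp1, Csrnp1 and Xirp1 on the same strand, so its reads may not be fully separated. Of the tested genes of this list, 1 of 5 was higher over all cells, 1 of 4 in G1 cells and 2 of 4 in S and G2M cells. The shares of all genes were 31.5%, 24.8% and 20.6%, and 0 genes of the list were lower. The 6 lymphocyte genes summed to 0.137 to 0.245 CPM at 37°C and 0.0379 to 0.248 CPM at 39°C, with Cd3e at 0 UMIs. The 6 endothelial genes summed to 0.582 to 1.02 and 0.833 to 1.14 CPM, with Cdh5 and Cldn5 at 0. Of the 2 endothelial genes tested over all cells, 1 was higher at 39°C (log2 1.35), beside 31.5% of all genes. In G1 cells it was again 1 of 2, beside 24.8%. Within G1 cells Pecam1 rose from 0.12 to 0.62 CPM (3 and 50 UMIs, log2 2.20, edgeR adjusted p = 0.0111). Tek did not pass in G1 (adjusted p = 0.817). No endothelial gene passed in S and G2M cells, where 20.6% of all genes were higher and 23.8% lower. The part of Cd68-expressing or other cells in the results was not tested.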

How the data were processed

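Single-cell RNA-seq (10x Chromium 3′ V3) was measured in 8 libraries, 4 per temperature. The deposited matrices hold UMI counts per gene and cell, made by the authors with Cell Ranger 3.0.1 on mm10 per the submitters' processing notes, and no normalization had been applied. From these, cells with a mitochondrial share of at most 15% and 200 to 6000 genes were kept, and doublets were limited only by that upper gene number. Phases were assigned with Seurat 5.3.0 cell cycle scoring. Counts were summed per library, or per library and phase class, and genes averaging at least 1 count per library were tested with edgeR 4.0.16 (quasi-likelihood, TMM, Benjamini-Hochberg over all genes, R 4.3.3), after the scripts were tested on simulated data. All edgeR p-values are two-sided. DESeq2 1.42.0, other scalings and filters, phase scoring per library, thinning to equal totals, the replicate number as a block and leaving out each library were alternatives. Library totals, between 17166686 and 29633818 UMIs, limit the precision for genes with few UMIs.

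The 37 genes and all other lists were chosen with earlier results of these data known. Genes given in full are those past the larger threshold, the 10 largest rises and 10 largest falls with an adjusted p below 0.05 and the 5 with the highest CPM. Pathway genes are named if past the larger threshold or among the 3 largest rises or falls of their list. Libraries of the same temperature differed by more than counting error (a chi-square statistic 2.74 to 20.22 times its degrees of freedom), so each counted as its own sample. Promoter and gene positions came from RefSeq (GRCm38.p6) and the GRCm38 annotation. 1 gene of the pathway lists is not reported here.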

Additional observations from a re-analysis of the deposited data

Results flagged for a closer look

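In 4 of the 70 groups of 4 libraries examined, 1 library stood apart from its group by Dixon's criterion, and chance alone would give about 1 in 20. Ifit1 read 2.78 CPM in replicate 4 at 39°C, against 0.681 to 1.03 in the other libraries at 39°C. Ifi35 read 106 CPM in replicate 4 at 37°C, against 99.4 to 100. Oasl2 read 0.0379 CPM in replicate 2 at 39°C, against 0.227 to 0.248. Rtp4 read 1.5 CPM in 1 library at 39°C, against 1.13 to 1.19.

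The log2 difference of G1 minus S and G2M cells differed between the temperatures for 10 genes (edgeR interaction, adjusted p in parentheses). The difference at 39°C minus that at 37°C was -0.52 for Samhd1 (4.65e-13), -0.346 for Bst2 (3.92e-10), -0.522 for Tapbp (1.11e-09), -0.886 for Ifit3 (2.58e-05) and -0.266 for Ifi27 (4.75e-05). It was -0.784 for Gbp2 (0.00025), -0.189 for B2m (0.00074), -0.535 for Lgals3bp (0.0109) and -0.2 for H2-D1 (0.0399). For Ifit1 it was 3.242 (0.00312), and that call was lost without replicate 4 at 39°C. The H2-D1 call was lost with DESeq2 (0.072), with phases scored per library (-0.03, adjusted p = 0.776) and in 5 fits that left out 1 library (0.0642 to 0.168). The Lgals3bp call was lost with DESeq2 (0.0975) and in 3 such fits (0.0509 to 0.109), and that of Ifi27 without replicate 2 at 39°C (0.0575).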

How the results depend on the processing

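Over all cells, 6 to 8 genes of the 35 were higher and 16 to 18 lower in every alternative run, and no value of a tested gene changed sign with a call. Among all genes 4260 to 5270 were higher and 4393 to 4981 lower in those runs. Within G1 cells the counts ranged over 3 to 6 and 15 to 19, and within S and G2M cells over 3 to 6 and 7 to 13. Over all genes these ranges were 2998 to 4111 and 2990 to 3844 in G1. In S and G2M cells they were 2238 to 4350 and 2290 to 4419. Phases scored per library gave 6 higher genes among S and G2M cells in place of 3, and thinning to equal totals gave 2290 lower genes of all in place of 3509. DESeq2 called 5 genes of the list lower in G1 in place of 9. Over all genes the number lower in G1 ranged from 2938 to 3841 across the alternatives. For the interaction, genes with a larger G1 difference numbered 609 of all with library totals only, 972 with filterByExpr and 528 with DESeq2 (1641 in the fit reported), and those with a smaller one 1673 with library totals only, 1399 with phases per library and 494 with DESeq2 (757). The single gene of the list with a larger difference, Ifit1, became 0 with DESeq2 and 0 without the 4 cells high in Isg15 and Ifit3 (an alternative chosen after seeing the data), and 0 to 2 when 1 library was left out, 0 without replicate 4 at 39°C and 2 without replicate 4 at 37°C. The causes were not tested.

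Lgals3bp lost its call over all cells in several alternatives (adjusted p 0.0501 to 0.309), and Tap2 lost its call without replicate 2 at 39°C (0.0674) and with equal cells per library (0.0782). Ifi27 passed over all cells in 6 alternatives: library totals only (0.15, adjusted p = 0.0272), upper quartile factors (0.0495), without replicate 1 at 39°C (0.00896), no cell filter (0.0169), a mitochondrial limit of 10% (0.0183) and no upper gene limit (0.0124). Dhx58 passed without replicate 4 at 37°C (-0.84, adjusted p = 0.038) and with equal cells per library (-1.10, adjusted p = 0.0399). Within phases, scoring each library by itself changed the calls of Ifit3, Irf7, Irf9, Ifi27, B2m and H2-K1, with the values given beside them. In G1 it also added a call for Ifit1 (1.49, adjusted p = 0.0122) and removed that of Usp18 (adjusted p = 0.0526). In S and G2M cells it added lower calls for Ifih1 (adjusted p = 0.0158), Irf1 (0.00413), Oasl2 (0.0208) and Parp9 (5.31e-05). There the Irf3 call was lost (adjusted p = 0.0779). With the replicate number as a block, 7 genes were higher and 17 lower over all cells, 4 and 19 in G1 and 3 and 10 in S and G2M. Among all genes the same fits called 4880 higher and 4737 lower over all cells, 3560 and 3218 in G1, and 2990 and 3513 in S and G2M. Deviations of same-numbered libraries correlated at -0.121, -0.117, -0.095 and 0.291 over 8358 genes. Those of differently numbered libraries ranged from -0.32 to 0.31, so this check showed no pairing by number and could not exclude it. Low UMI totals limit Mx1, Usp18, Oasl2, Dhx58 and Ifit1.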
